A study of Danio rerio with 2 samples.

Results

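The V-ATPase is the proton pump of endosomes, lysosomes and phagosomes. Its cytosolic V1 sector (subunits A, B, C, D, E, F, G and H) hydrolyses ATP and turns a rotor, and its membrane V0 sector (subunits a, c, c'', d and e) lets protons pass into the lumen. ATP6AP1 and ATP6AP2 are accessory proteins of the V0 sector. Macrophages need the acid that the pump makes, because the cathepsins and hydrolases that digest engulfed material work at low pH. Several subunits are encoded by more than 1 gene, and in mammals the choice among these paralogs differs between cell types.

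The V-ATPase genes were taken by name, as all genes with an Ensembl zebrafish name that starts with atp6v0, atp6v1 or atp6ap, in any case. There were 26 such genes among the 22342 genes of the plate tables. They comprised 13 V1 genes, 8 V0 genes and 5 accessory genes. A further name, atp6v0e1, is not analysed here. Where the table of names gives 1 symbol to 2 Ensembl genes, both are written with the identifier, since the symbol does not tell the zebrafish a and b copies apart. Such copies can share reads, and how the authors' counting divided these was not stated.

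The study compared macrophages of zebrafish tails that had or had not picked up red label from hematopoietic stem and progenitor cells (HSPCs). All embryos carried mpeg1:EGFP, in which a macrophage promoter drives green fluorescence, and runx1+23:mCherry, in which a Runx1 enhancer drives red fluorescence in HSPCs, and were taken at 3 days post-fertilization. Single EGFP+ cells from the tail were sorted for SORT-seq, a plate-based method that counts transcripts from their 3′ ends by unique molecular identifiers (UMIs). On each of 2 plates, wells 1 to 192 received EGFP+mCherry+ cells (the mCherry+ gate) and wells 193 to 384 received EGFP+mCherry- cells (the mCherry- gate), and the gate is known from the well number alone. A red cell can be a macrophage with red material or a cell that makes the label itself. Separate clutches or sorts are not stated for the plates, so p-values rest only on how gate differences varied between these plates.

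Of 768 wells, 534 had at least 500 UMIs and 200 genes, 143 and 151 of them (mCherry+ and mCherry-) on plate 1 and 123 and 117 on plate 2. They held 6186716 UMIs, of which 27122 were from V-ATPase genes. The labels call the cells macrophages, but the wells fell into several classes by marker genes when they were clustered without the V-ATPase genes. Macrophage-like wells numbered 213, in clusters 1, 3 and 5, and neutrophil-like wells numbered 120. The other wells were fibroblast-like or mesenchyme-like (21), muscle-like (13), erythroid-like (8) or in unnamed clusters. Of these, cluster 4 (65 wells) and cluster 8 (26 wells) are used most below. The leading genes of cluster 8 included blf, RHAG, PCNA, MYB and cd34. It had 7 of 19 proliferation markers and 4 of 13 HSPC or progenitor markers raised, and was left unnamed. The macrophage-like wells lay in different clusters by gate and by plate. By gate, cluster 5 held 55 of 103 mCherry+ and 4 of 110 mCherry- wells. By plate, cluster 3 was found on plate 1 alone, and 79 of the 85 wells of cluster 1 were on plate 2. No same-position wells of the plates held identical values.

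Macrophage-like wells gave the V-ATPase genes a larger share of their transcripts than neutrophil-like wells. Levels are given in CPM, a gene's UMIs as a share of all UMIs of the wells added together, scaled so that 10000 CPM is 1% of them. The summed level of the 26 genes was 7119.7 and 9182 CPM in mCherry+ and mCherry- macrophage-like wells of plate 1, and 8441 and 8032 CPM on plate 2. In neutrophil-like wells it was 2167 and 2227 CPM on plate 1 and 2689 CPM in mCherry- wells of plate 2. The 3 mCherry+ neutrophil-like wells of plate 2 gave 2615 CPM. The lowest macrophage-like sum thus lay above every neutrophil-like sum, and the ratio of the classes was 3.87 on plate 1 and 3.09 on plate 2. V-ATPase transcripts made up 0.839% of all UMIs in macrophage-like wells, against 0.237% in neutrophil-like wells, at a median depth of 10365 and 8531 UMIs per well. Because the classes came from clusters of the same wells, differences between them are described without a test.

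The remaining classes were lower or rested on few wells. Clusters 4 and 8 gave 1409 and 1171 CPM, and the muscle-like wells 1034 CPM. The fibroblast-like or mesenchyme-like wells gave 1924 CPM on plate 1 (13 wells) and 4855 CPM on plate 2 (8 wells), so that the plates disagreed. Erythroid-like wells gave 3762 CPM from 8 wells, and the shallow unnamed clusters 6 and 11 gave 4794 and 4133 CPM. The mitochondrial ATP synthase, a rotary enzyme that makes ATP instead of using it, had another order: its 19 genes summed to 6180.4 CPM in macrophage-like, 4140.3 in neutrophil-like, 8553 in cluster 4, 10926 in cluster 8 and 15405 CPM in muscle-like wells. The summed V-ATPase level exceeded that of the ATP synthase in macrophage-like wells and was below it in neutrophil-like, muscle-like, cluster 4 and cluster 8 wells. It also exceeded the ATP synthase in cluster 6 (4794 against 4577 CPM) and in cluster 11 on plate 2 (5286 against 4298 CPM). Over both plates it was below in cluster 11 (4133 against 5451 CPM), erythroid-like (3762 against 6229 CPM) and fibroblast-like or mesenchyme-like wells (3100 against 5536 CPM). The 2 sums hold different numbers of genes and are counted by 3′ ends, whose annotation was not assessed. Which sum is larger within a class therefore does not give their order in the cell.

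Single members exceeded the neutrophil-like range to different degrees. Of the 26 genes, 15 had all 4 macrophage-like sums above all 3 neutrophil-like sums with at least 10 wells, 2 overlapped, none lay below, and 9 had too few UMIs to be compared (under 50 over these sums). Among all genes with 50 UMIs, 20.8% lay above and 12.5% below in the same way. A gene could reach 50 UMIs through the macrophage-like sums alone.

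**Figure D1:**
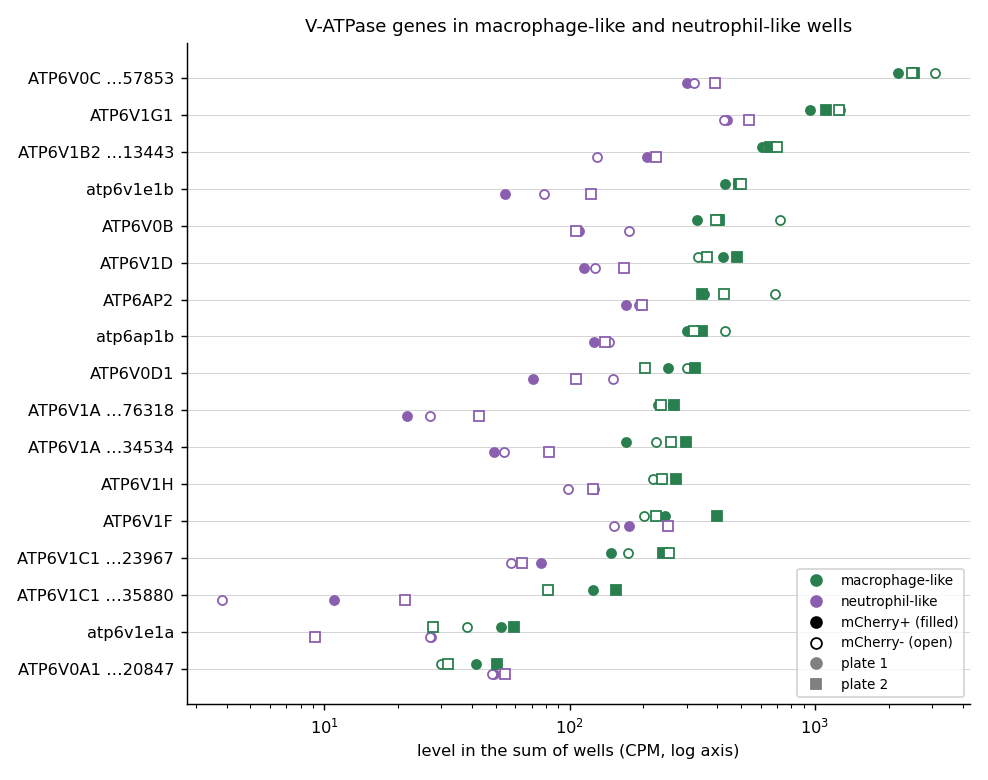
Level of 17 V-ATPase genes (CPM of summed wells, log axis) in macrophage-like (green) and neutrophil-like (purple) wells, by gate (filled: mCherry+) and plate (circles and squares); the last 5 digits of the Ensembl identifier tell apart genes that share a symbol. The green points lie to the right of the purple points in 15 genes and overlap with them in ATP6V1F and ATP6V0A1; the sum of 3 mCherry+ neutrophil-like wells on plate 2 is not drawn.

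Within the V0 sector, the proteolipid c, which forms most of the rotor ring, gave more UMIs than any other member. ATP6V0C ENSDARG00000057853 had 2185 and 3079.6 CPM in mCherry+ and mCherry- macrophage-like wells of plate 1 and 2531 and 2491 CPM on plate 2, with UMIs in 212 of 213 wells. It held 31.3% of the V-ATPase UMIs of these wells. In neutrophil-like sums its level was between 300.2 and 392 CPM, and its mean was 7.61 times higher in the macrophage-like sums. At an equal depth of 2000 UMIs per well, 206 of 209 macrophage-like wells (98.6%, exact 95% interval 95.9 to 99.7%) and 49 of 113 neutrophil-like wells (43.4%, 34.1 to 53.0%) had a UMI of it. No class that should lack a V-ATPase subunit was at hand, so the background of detection cannot be set, and intervals cover counting error only.

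The other V0 subunits gave fewer UMIs. ATP6V0B, which encodes the proteolipid c'', had 332, 719.7, 407 and 396 CPM in mCherry+ and mCherry- wells of plate 1 and then of plate 2. ATP6V0D1, the subunit d that joins the ring to the V1 stalk, had 253, 301, 326 and 203 CPM in the same order. Both lay above the neutrophil-like range, by 3.56 and 2.48 times in the means. The a subunit, which carries the proton path and in mammals directs the pump to its membrane, was low in these libraries. ATP6V0A1 ENSDARG00000020847 had 41.4, 29.9, 50.7 and 31.8 CPM in macrophage-like and 48.1 to 54.7 CPM in neutrophil-like sums, and was the sole compared member with a lower mean in macrophage-like wells (0.76 of the neutrophil-like mean, with overlap). Counting is by 3′ ends, and the completeness of the annotated 3′ ends was not assessed, so a low count of a gene does not give its order among other genes in the cell. TCIRG1, which encodes the a3 subunit of mammalian osteoclast and macrophage lysosomes and falls outside the name rule, had 1 row and no UMI in macrophage-like wells, which allows up to 1.32 CPM (3 UMIs over all of them).

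Of the V1 sector, ATP6V1G1, a stalk subunit, had 951, 1260.4, 1108 and 1253 CPM and 13.8% of the V-ATPase UMIs. ATP6V1B2 ENSDARG00000013443, a subunit of the ATP-hydrolysing head, had 607, 635, 654 and 699 CPM, with little spread between gates and plates. The stalk subunit gene atp6v1e1b had 429.7, 486, 491 and 502 CPM. Against the neutrophil-like sums these means were 2.45, 3.47 and 5.61 times higher. ATP6V1D, part of the central rotor, had 422, 333, 481 and 362 CPM, and ATP6V1H, a regulatory subunit, had 237, 219.7, 271 and 239 CPM. ATP6V1F, also of the rotor, had 245, 201 and 225 CPM in 3 sums and 399 CPM in mCherry+ wells of plate 2, and overlapped with the neutrophil-like range of 152 to 253 CPM.

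The accessory genes were carried by 1 copy each. ATP6AP2, the prorenin receptor, had 354, 688, 345 and 424 CPM, with the highest value in mCherry- wells of plate 1. The gene atp6ap1b, one of 4 genes with a name that starts with atp6ap1, had 302, 428, 348 and 322 CPM. The means were 2.43 and 2.56 times the neutrophil-like ones, and both genes lay above that range in every macrophage-like sum.

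Paralogs were used unequally. In macrophage-like wells of both plates, ATP6V0C ENSDARG00000057853 gave 99.9% of the UMIs of subunit c (5978 of 5986; exact 95% interval 99.7 to 99.9%), and ATP6V1B2 ENSDARG00000013443 gave 99.9% of subunit B (1487 of 1489; 99.5 to 99.98%). Of the 828 UMIs of all genes with names that start with atp6ap1 (atp6ap1la and atp6ap1lb included), atp6ap1b gave 98.3% (97.2 to 99.1%). For subunit E, atp6v1e1b gave 91.3% of 1209 UMIs (89.6 to 92.8%). Subunit a had 109 UMIs, 83.5% of them from ATP6V0A1 ENSDARG00000020847 (75.2 to 89.9%) and 15.6% from ATP6V0A2 ENSDARG00000035565 (9.36 to 23.8%). Subunit A, the catalytic one, was the exception: ATP6V1A ENSDARG00000034534 and ENSDARG00000076318 gave 579 and 580 UMIs. Subunit C, which clamps the V1 sector to the membrane sector, was mixed as well, with 64.8% (61.2 to 68.2%) from ATP6V1C1 ENSDARG00000023967 and 34.8% (31.4 to 38.4%) from ENSDARG00000035880.

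For A and C the mixture differed between classes when both gates and plates were pooled, which was not tested. ATP6V1A ENSDARG00000076318 gave 50.0% of subunit A in macrophage-like wells (47.1 to 53.0%), 34.7% in neutrophil-like (25.5 to 44.8%), 27.6% in cluster 4 (12.7 to 47.2%, 29 UMIs) and 23.3% in cluster 8 (9.93 to 42.3%, 30 UMIs). Other classes had few UMIs of it, and some lay near the macrophage-like balance. ENSDARG00000076318 and ENSDARG00000034534 gave 11 and 11 UMIs in erythroid-like, 26 and 32 in muscle-like, and 32 and 44 in fibroblast-like or mesenchyme-like wells. They gave 5 and 3 UMIs in cluster 11 and 21 and 41 in cluster 6. The 2 ATP6V1A genes had 230, 263, 267 and 237 CPM (ENSDARG00000076318) and 169.6, 225, 297 and 259 CPM (ENSDARG00000034534) in the macrophage-like sums, and the means were 8.18 and 3.85 times those of neutrophil-like wells. ATP6V1C1 ENSDARG00000035880 gave 15.2% of subunit C in neutrophil-like wells (12 of 79 UMIs; 8.10 to 25.03%) and 82.4% in cluster 8 (14 of 17 UMIs; 56.6 to 96.2%). Together with ENSDARG00000023967 it gave 7 and 15 UMIs in cluster 4, 23 and 43 in fibroblast-like or mesenchyme-like wells and 23 and 22 in muscle-like wells. Within the mCherry- gate, the macrophage-like and neutrophil-like wells differed in this mixture on plate 1 only. The 2 genes gave 49 and 104 UMIs in macrophage-like and 2 and 30 in neutrophil-like wells there. On plate 2 they gave 41 and 128 against 7 and 21 UMIs, a near equal share. The mean level of ENSDARG00000035880 was 9.19 times higher in macrophage-like than in neutrophil-like sums, the largest ratio among the compared members, against 3.09 times for ENSDARG00000023967. The neutrophil-like sums behind the 9.19 held only 2, 2 and 7 UMIs, and the plates differed. In mCherry- wells ENSDARG00000035880 had 81.5 against 3.85 CPM on plate 1 and 81.5 against 21.3 CPM on plate 2. In those of plate 2, ATP6V0C ENSDARG00000057853 had 2491 against 392 CPM, a larger ratio. The minor E gene, atp6v1e1a, gave 8.69% of subunit E in macrophage-like wells (7.16 to 10.4%) and 20.5% in neutrophil-like wells (13.6 to 29.0%), and its level was 2.11 times higher in the macrophage-like sums. The plates disagreed on this share. On plate 1 atp6v1e1a and atp6v1e1b gave 37 and 406 UMIs in macrophage-like and 19 and 51 in neutrophil-like wells. On plate 2 they gave 68 and 698 against 5 and 42 UMIs, which are closer shares.

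**Figure D2:**
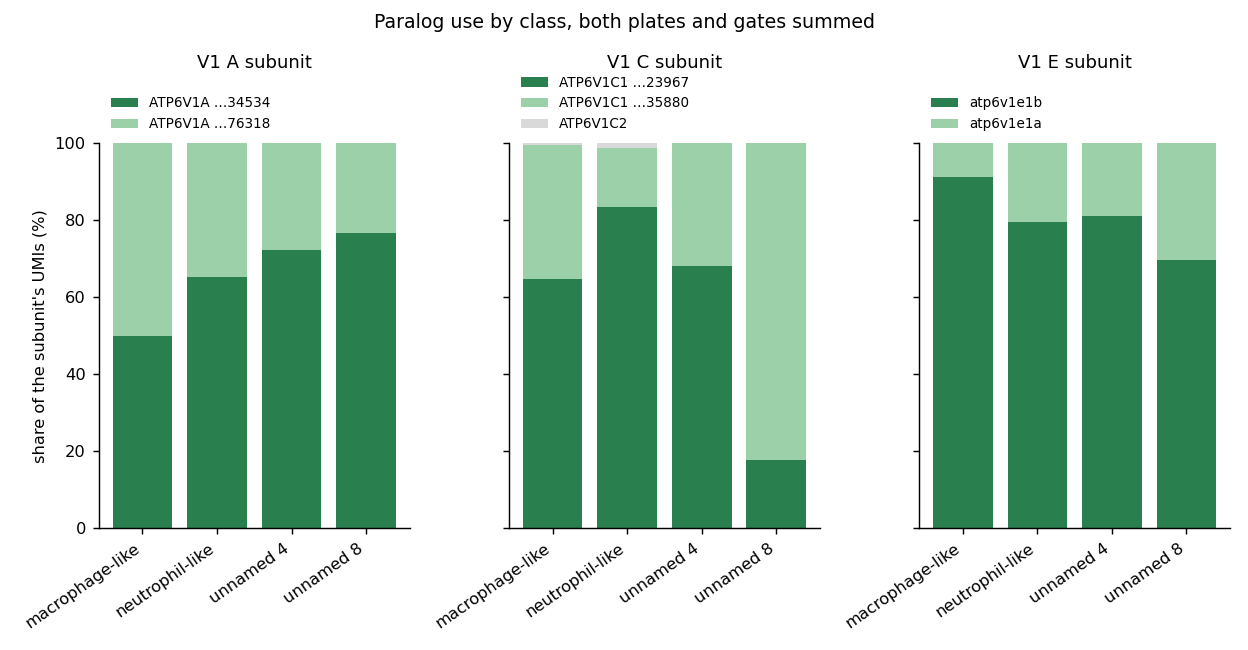
Share of each subunit's UMIs (%) from each of its genes, for subunits A, C and E of the V1 sector, by class with both gates and plates summed. ATP6V1A ENSDARG00000076318 (light, left) has a share of 50.0% in macrophage-like wells, the highest of the 4 classes drawn, and ATP6V1C1 ENSDARG00000035880 (light, middle) ranges from 15.2% in neutrophil-like wells to 82.4% in the 17 UMIs of cluster 8.

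The low copies gave few UMIs in macrophage-like wells: 17 UMIs of ATP6V0A2 ENSDARG00000035565, 10 of atp6ap1la, 8 of ATP6V0C ENSDARG00000036577, 4 of atp6ap1a, 3 of ATP6V1C2, 2 of ATP6V1B2 ENSDARG00000043465, 1 of ATP6V0A1 ENSDARG00000015174 and none of ATP6V0A2 ENSDARG00000035538 and atp6ap1lb. A single well held much of what the whole series had of some of them: well 16 of plate 1, an mCherry+ well in the unnamed cluster 6 with 28958 UMIs, gave 41.2 of 68.2 UMIs of ATP6V0A1 ENSDARG00000015174, 52.3 of 113.4 of ATP6V0C ENSDARG00000036577 and 21 of 34 of ATP6V1B2 ENSDARG00000043465. That well, singled out after its values were seen, had 10 of 11 neuron marker genes and a summed neuron marker level of 19630.0 CPM, where the next well had 5503 CPM and the median well had none. The same well gave 49.3 of 7780.2 UMIs of ATP6V0C ENSDARG00000057853, the major c gene.

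The gates were then compared within macrophage-like wells, which asks whether the pump's genes go up in macrophages with red material. On plate 1 the mCherry+ sum of the V-ATPase genes was 0.775 times the mCherry- sum, and on plate 2 it was 1.05 times. Single wells overlapped widely. On plate 1 they ran from 2317 to 15487 CPM with a median of 7567 in 28 mCherry+ wells, and from 2786 to 18023 with a median of 9488 in 57 mCherry- wells. On plate 2 the range was 1841 to 23175 CPM with a median of 7846 in 75 mCherry+ wells, and 5039 to 12250.2 with a median of 8093 in 53 mCherry- wells. By well medians the mCherry+ gate was thus the lower one on both plates, at 0.798 and 0.969 times, while by sums the plates differed in direction. Transcripts of other lysosomal genes behaved differently in the same wells. The 58 genes of a list of lysosomal hydrolases and membrane proteins summed to 21544 against 12196 CPM on plate 1 and to 24149 against 10991 CPM on plate 2, which is 1.77 and 2.2 times higher in mCherry+ wells.

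**Figure D3:**
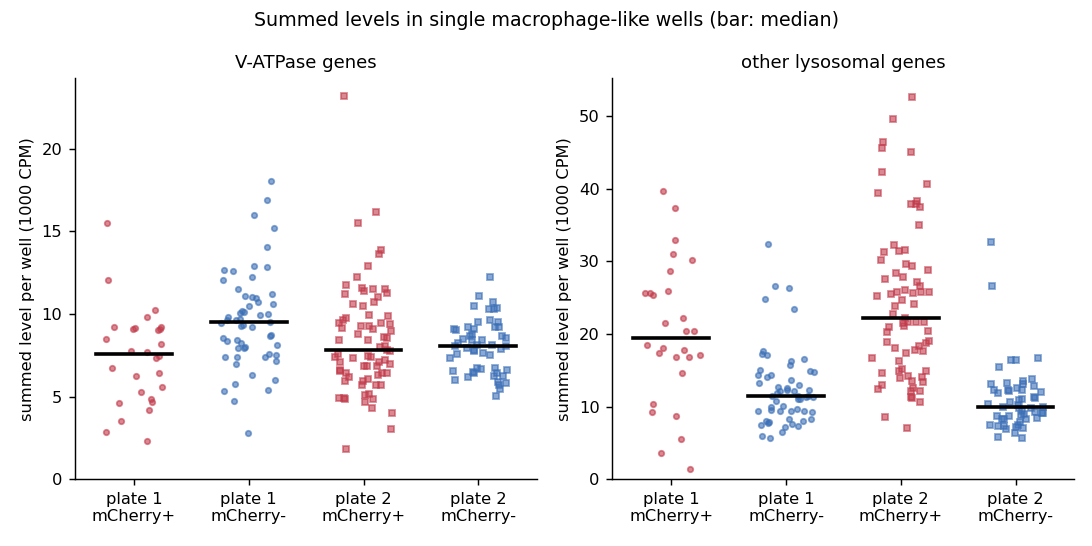
Summed level per macrophage-like well (1000 CPM) of the V-ATPase genes (left) and of other lysosomal genes (right), by plate and gate; each point is a well and the bar is the median. V-ATPase medians are 7567 and 9488 CPM on plate 1 and 7846 and 8093 CPM on plate 2 (mCherry+ and mCherry-), while those of the other lysosomal genes are 19463 and 11446 and then 22210 and 10027 CPM.

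No V-ATPase gene passed the test between gates in macrophage-like wells. UMIs were added up per gate and plate, and the 4 sums were fitted with edgeR's quasi-likelihood test with plate as a block, with Benjamini-Hochberg adjustment over the 5388 genes tested. Of the 26 V-ATPase genes, 17 passed the filter on low counts. None was called, where 4.73% of all tested genes were called in either direction, 2.77% higher and 1.97% lower. At an unadjusted p under 0.05 there were 2 of the 17, one in each direction, where 17.0% of all tested genes had such a p, and DESeq2 gave none of the 17 at that level. With 17 genes tested and a share of 4.73% over all genes, a count of 0 does not set the V-ATPase genes apart. It says still less where a setting called few genes of any kind: DESeq2 called 79 of the 5388 genes and the fit without the plate block 81, against 255 here. The median log2 fold change of the 17 genes was -0.09, against 0.00 over all tested genes, with -0.25 on plate 1 and 0.21 on plate 2. Fitted changes were higher in the mCherry+ gate for 7 genes and lower for 10, and 6 were higher and 4 lower on both plates.

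The 95% intervals of these changes hold for this fit, this choice of wells and these 2 plates. They rest on 10.844 degrees of freedom, of which edgeR borrowed 9.844 from the spread of all genes. The upper 95% limit lay under 1 on the log2 scale, a doubling, for 13 of the 17 genes, and the lower limit lay above -1 for 15. The major c gene, ATP6V0C ENSDARG00000057853, had a log2 fold change of -0.25 (SE 0.18; 95% interval -0.65 to 0.15; adjusted p = 0.563). ATP6V1B2 ENSDARG00000013443 had -0.09 (-0.56 to 0.38), atp6v1e1b -0.11 (-0.62 to 0.39) and ATP6V1G1 -0.30 (-0.73 to 0.12). The ATP6V1A genes had -0.09 (ENSDARG00000034534) and -0.01 (ENSDARG00000076318).

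The 2 genes with an unadjusted p under 0.05 pointed in opposite directions. ATP6AP2 had a log2 fold change of -0.63 (SE 0.26; edgeR's adjusted p = 0.231), with 354 against 688 CPM on plate 1 and 345 against 424 on plate 2. At an equal depth of 2000 UMIs on plate 1, 14 of 26 mCherry+ wells had a UMI of it (53.8%, 33.4 to 73.4%), against 49 of 57 mCherry- wells (86.0%, 74.2 to 93.7%). At 1000 UMIs the shares were 37.0% and 36.8%, and without thinning 89.3% and 98.2%, with overlapping intervals at both. The minor C gene, ATP6V1C1 ENSDARG00000035880, had 0.76 (SE 0.32; edgeR's adjusted p = 0.240), with 124 against 81.5 CPM on plate 1 and 154 against 81.5 CPM on plate 2. Both mCherry+ sums lay above both mCherry- sums. At equal depth 20 of 74 mCherry+ wells of plate 2 had a UMI of it (27.0%, 17.4 to 38.6%) against 3 of 52 mCherry- wells (5.77%, 1.21 to 15.9%), while on plate 1 the shares were 15.4% and 21.1% with overlapping intervals. At 1000 UMIs the plate 2 shares were 12.2% and 9.43%, with overlap, and without thinning 74.7% and 47.2%, again apart. Neither of these 2 genes passed the adjusted threshold. Intervals that lay apart were not particular to them. At 1000 UMIs ATP6V0B was the member apart on plate 1 and ATP6V1F on plate 2, and without thinning ATP6V1F was also apart on plate 2. With wells chosen by marker UMIs instead of clusters, ATP6AP2 was called, at -1.22 (edgeR's adjusted p = 0.0454), and the median of the V-ATPase genes was -0.56. In that setting 568 of all 5809 genes tested were called (9.78%), so 1 of 17 does not set the V-ATPase genes apart.

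The minor C gene had a higher share of subunit C in the mCherry+ sum of each plate, which was not tested. ATP6V1C1 ENSDARG00000035880 gave 45.8% of subunit C UMIs in mCherry+ and 32.0% in mCherry- wells of plate 1, and 39.1% (34.0 to 44.4%) and 23.8% (17.7 to 30.9%) on plate 2. The intervals overlapped on plate 1 and were apart on plate 2, but they cover the counting error of pooled UMIs only, without the spread between wells or plates. The minor E gene, atp6v1e1a, had 52.7 against 38.3 CPM on plate 1 and 59.5 against 27.8 CPM on plate 2, and its share of subunit E was 10.9% against 7.3% and 10.8% against 5.26%. Its log2 fold change was 0.79 (SE 0.40; edgeR's adjusted p = 0.365). These were the members with the largest positive changes, followed by ATP6V0A1 ENSDARG00000020847 at 0.58 (SE 0.41), ATP6V1F at 0.56 (SE 0.28) and ATP6V1D at 0.36 (SE 0.24), none of which passed. At the lower end, ATP6V0B had -0.54 (SE 0.30), with -1.17 on plate 1 and 0.07 on plate 2. ATP6V0D1 went from -0.31 on plate 1 to 0.71 on plate 2, and atp6ap1b from -0.56 to 0.14. The remaining compared genes, ATP6V1H (0.14) and ATP6V1C1 ENSDARG00000023967 (-0.16), lay near 0.

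**Figure D4:**
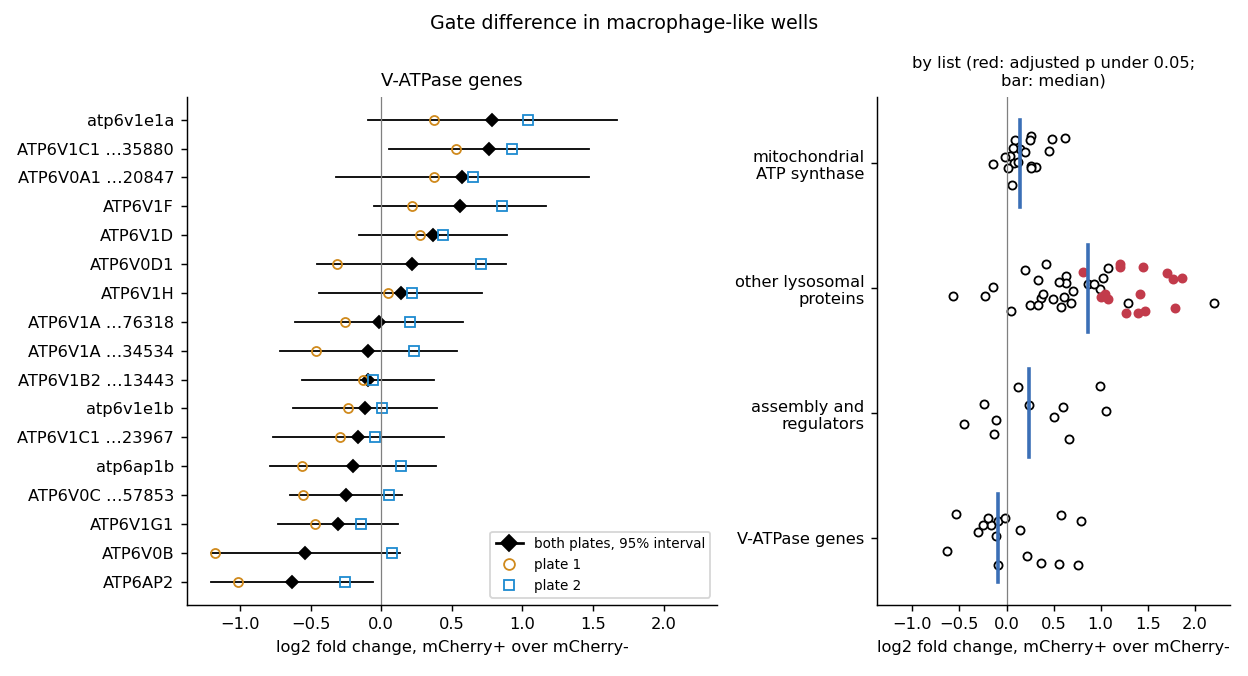
Log2 fold change of mCherry+ over mCherry- macrophage-like wells: left, 17 V-ATPase genes with their 95% intervals (diamonds) and the values on each plate; right, the tested genes of 4 lists, with the median as a bar and genes with an adjusted p under 0.05 in red. None of the V-ATPase genes is red and their median is -0.09, whereas 15 of 41 other lysosomal genes are red, all to the right of 0. Of all tested genes, 4.73% have such an adjusted p, 2.77% to the right of 0.

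Genes around the pump gave these values in the same fit. Of 41 tested genes of the lysosomal list, 15 were called higher and none lower, where 2.77% and 1.97% of all tested genes were. The list had a median of 0.86 (0.77 on plate 1 and 0.96 on plate 2). Among the genes past the threshold the largest changes were in ctsl.1 (1.86, adjusted p = 0.0026), ctsla (1.79) and CTSK (1.71), which encode cysteine cathepsins, in SMPD1 (1.77), the acid sphingomyelinase, and in LGMN (1.47), an asparagine-specific protease. Over the whole list 38 of 41 genes had a positive change, and the changes ran from -0.57 to 2.21, a range that overlapped with the -0.63 to 0.79 of the V-ATPase genes. The count of 15 depended on the setting: edgeR gave 8 without the deepest well of each sum, 3 without the plate block, 3 of 42 with wells chosen by marker UMIs, 0 of 28 after thinning to 2000 UMIs and 0 of 40 with genes scaled before clustering, and DESeq2 gave 4. The median of the list stayed between 0.32 and 1.13 in these settings. Of 11 tested genes for assembly factors, further subunits and regulators of the pump, none was called and the median was 0.24. Among them TMEM9B had 1.05 (SE 0.34; edgeR's adjusted p = 0.117) and DMXL2, whose product helps the V1 and V0 sectors to assemble, had 1.00 (SE 0.36; adjusted p = 0.165). DMXL2 had 67.8 against 33.3 CPM on plate 1 and 79.4 against 39.8 CPM on plate 2. RNASEK, which binds the V0 sector, had 441, 451, 574 and 398 CPM and a change of 0.24, and VMA21, a V0 assembly factor, had 0.13. Of the MiT/TFE factors, which in mammals drive lysosomal and V-ATPase genes together, TFEB had -0.45 and tfe3b -0.49, with neither called. None of the 19 ATP synthase genes was called, and their median was 0.14.

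Within the mCherry+ macrophage-like wells of plate 2, the summed V-ATPase level was 8336 CPM in cluster 1 (29 wells) and 8505 CPM in cluster 5 (46 wells). The lysosomal list was at 18265 and 27773 CPM in the same wells. On plate 1, where cluster 1 had only 4 mCherry+ wells, the V-ATPase level was 9014 CPM in cluster 1 and 7099.6 CPM in cluster 5 (9 wells). Cluster 3, which held 15 of the 28 mCherry+ wells there, was the lowest at 6742 CPM. In its 54 mCherry- wells the level was 9048 CPM. From well to well the shares of UMIs for the V-ATPase and for the lysosomal list went together, with Spearman's rho of 0.47 and 0.41 on plate 1 (28 mCherry+ and 57 mCherry- wells) and 0.54 and 0.28 on plate 2 (75 and 53 wells). Both shares came from the same library and depth. Against the share of HMOX1, which encodes the heme-degrading enzyme heme oxygenase, rho for the V-ATPase was 0.17 and -0.10 on plate 1 and 0.19 and -0.06 on plate 2.

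Markers of other cells were present in the macrophage-like sums in both gates. The 13 neutrophil markers summed to 1432 and 1480.3 CPM on plate 1 (mCherry+ and mCherry-) and to 1212 and 1056 CPM on plate 2, with 11 or 12 detected in each sum. The 13 HSPC or progenitor markers summed to 56.5 and 88.2 CPM and to 76.1 and 63.6 CPM, so the mCherry+ sum was the lower one on plate 1 and the higher one on plate 2. The 16 muscle markers differed more by plate (1802 and 1265 CPM against 3773 and 3689 CPM) than by gate. The 23 macrophage markers summed to 17101 against 12392 CPM and to 19323 against 12786 CPM. The 7 endothelium markers were higher in mCherry+ sums on both plates (113 against 59.9 CPM and 145.6 against 51.7 CPM), and so were the 10 fibroblast or mesenchyme markers (196 against 125 CPM and 343 against 151 CPM), of which the richest well gave 61.8% in the mCherry+ sum of plate 2. The part of these in the V-ATPase values was not tested.

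Over all kept wells, whatever their class, most V-ATPase genes had lower mCherry+ than mCherry- sums on plate 1 and near equal sums on plate 2. The share of macrophage-like wells also differed by plate: on plate 1 they were 28 of the 143 in the mCherry+ gate and 57 of the 151 in the mCherry- gate. On plate 2 they were 75 of 123 and 53 of 117. The median log2 fold change of the 21 V-ATPase genes tested was -0.999 on plate 1, 0.10 on plate 2 and -0.45 in the joint fit, with 17 of 21 lower. In such sums, fewer cells of a type and less RNA per cell cannot be told apart. By edgeR's quasi-likelihood test 1 of the 21 was called, where 4.75% of 9904 genes were: the minor c gene, ATP6V0C ENSDARG00000036577, at 2.75 (SE 0.65; adjusted p = 0.0462). Its UMIs were 85.3 against 4 on plate 1 and 20 against 4 on plate 2. Of the 85.3, well 16 of plate 1 gave 61.3%, and without that well the change was 1.94 with an adjusted p of 0.163. Of the 20 UMIs on plate 2, 1 well gave 80.0%. Without the plate block the change was 2.86 with an adjusted p of 0.133 (edgeR), and the genes called in all fell from 470 to 57. ATP6AP2, with -1.24 (adjusted p = 0.167), was the sole other V-ATPase gene with an unadjusted p under 0.05, which 17.9% of the genes tested had.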

How the data were processed

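The deposited tables, 1 per plate, hold expected counts: the authors counted UMIs per gene and well and corrected them for collisions of the 6-base tags, with no normalization. The submitters' processing notes name BWA, Seurat and GRCz11; versions, roles and annotation are not given in the sources used here. Symbols came from a table of gene names (17425 of 22342 genes matched). Spike-ins (1.13% of counts) were set aside. Sequences and coordinates were not used.

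Wells with at least 500 UMIs and 200 genes were clustered without the V-ATPase genes: log values at 10000 UMIs per well, 2000 variable genes, 30 components, 15 neighbors, Leiden resolution 1 (scanpy 1.11.5, leidenalg 0.10.2, seed 0). Clusters were named by the list with the largest share of raised markers (1 log2 unit at a floor of 50 CPM). At least 3 had to be raised, and no other list could have more markers among the 10 leading genes. A shallow cluster also needed a marker of its list among these. Other clusters stayed unnamed. Doublets were not called, since 1 cell was sorted per well. Members, lists and markers were chosen with earlier results of these data known. UMIs were summed per gate and plate, rounded, filtered (filterByExpr), scaled (TMM) and tested with edgeR 4.0.16 (R 4.3.3), with plate as a block, threshold 0.05. Plate values have no test. The plate pairs the gates by design, since both were sorted onto each plate; deviations of same-plate sums correlated at 0.09 (macrophage-like) and 0.12 (all wells) over genes. Detection used wells thinned to 2000 UMIs. Genes with 50 UMIs in kept wells were named with levels, as were all tested members; other genes were named where past the threshold within a list (at most 5 each way) or where a result turned on them. Depth per summed group of macrophage-like wells was 265437 to 906949 UMIs. Alternatives were DESeq2 1.42.0, RLE factors, no filter, no block, other minima, depths, resolutions and class definitions. Scripts were tested on simulated counts.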

Additional observations from a re-analysis of the deposited data

Results flagged for a closer look

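V-ATPase transcripts were also present in wells that no comparison used. The 234 wells under the minimum of 500 UMIs or 200 genes held 42356 UMIs in all, of which 231 came from V-ATPase genes, above the 3 that a count of 0 would allow. This is 5454 CPM, against 4384 CPM over the kept wells, and 131 of the 234 wells had at least 1 such UMI. These wells are too shallow to be given a class.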

How the results depend on the processing

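In macrophage-like wells no V-ATPase gene was called under DESeq2, RLE factors, no filter (24 genes tested), minima of 1000 or 2000 UMIs, other resolutions, thinning or without the deepest wells. Without the replicate block the count was 0 as well. Some of these settings called few genes of any kind, so their 0 says nothing about stability: 79 of 5388 under DESeq2, 81 without the block and 13 of 1599 after thinning, against 255 of 5388. With wells chosen by marker UMIs instead of clusters (271 wells, 210 shared) 1 was called, ATP6AP2 at -1.22 (edgeR's adjusted p = 0.0454), and the median moved to -0.56. There 568 of all 5809 genes tested were called (9.78%), so this count of 1 does not set the V-ATPase genes apart. With genes scaled before clustering, an alternative chosen after seeing the data, 0 were called (204 wells, 144 shared, 12 of them mCherry- on plate 1), where 2 of 5074 genes were called in all. Over all kept wells the count of 1 fell to 0 under DESeq2 (lowest adjusted p = 0.146) and RLE (edgeR's lowest adjusted p = 0.0541). By edgeR it was also 0 with no replicate block (0.133), after thinning (0.303) and without muscle-like wells (0.115). Without the well richest in neuron markers, chosen after seeing the data, it was 0 too (0.163), where 287 of 9869 genes were called. Few genes of any kind were called without the block (57 of 9904) or without muscle-like wells (36 of 9345), against 470 of 9904. Their 0 says nothing about stability. After thinning 278 of 3090 genes were called, but only 16 members were tested. With no filter the count rose to 3 of 26 (ATP6AP2, ATP6V0A1 ENSDARG00000015174 and ATP6V0C ENSDARG00000036577), where 1102 of 22241 genes were called. With 1 plate left out the log2 ratio of summed levels in macrophage-like wells (main -0.15) ran from -0.37 to 0.07, and the median difference in detection (main 0.01 points) from -5.33 to 5.35 points. No fit was made with 1 plate, which leaves no residual degrees of freedom. Of the single-gene values, 218 in macrophage-like wells and 197 over all wells kept their side of the threshold, and 1 and 6 did not. The cause was not tested. Directions were not all kept: with genes scaled before clustering the median of the V-ATPase genes in macrophage-like wells was 0.02, against -0.09 in the main fit. Depth limits the 9 members with at most 17 UMIs in macrophage-like wells.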
